A study of Mus musculus with 4 samples.

Results

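The 10 genes described here are epithelial, desmosomal and mesothelial genes, measured in smooth muscle cells grown from mouse aorta: Perp, Cdh1, Dsp, Jup, Krt8, Krt18, Krt19, Msln, Upk3b and Lrrn4. They were chosen by name, with earlier results of these arrays known, and every array probe whose RefSeq accession belongs to one of them was taken, which gave 11 probes of 55679 and 10 genes of 21367. Dsp had 2 probes and each of the other 9 genes had 1. The study measured messenger RNA on 4 arrays of 1 colour, with 1 array for each of 4 groups of C57BL/6J cells: wild-type (WT) control, WT with LDL, LAMP-2AKO (L2AKO) control and L2AKO with LDL. LAMP-2A, which the knockout cells lack by their label, takes proteins into lysosomes in chaperone-mediated autophagy. The cells were grown from 5 aortas (the label does not say whether 5 of each genotype), were used at passages 12 to 16, and all spent 24 h in medium with 5% lipoprotein-deficient serum. The treated cells also received LDL at 150 µg/ml cholesterol and bovine lipoprotein lipase at 0.1 U/ml, and the labels leave unclear whether control cells had the lipase too. By the design text each array holds a pool made in triplicate, so each group is 1 pooled sample, no spread between cultures can be given, and no test between groups was run.

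Epithelial cells hold to each other through adherens junctions, built on the cadherin Cdh1, and through desmosomes, in which cadherins of the Dsg and Dsc families are tied by Jup, plakophilins and Dsp to keratin filaments. Keratins of type I and type II pair with each other, as Krt18 does with Krt8. Mesothelium, the sheet that lines the body cavities, makes keratins as well as its own surface proteins, and mesothelial cells can give rise to fibroblasts and vascular smooth muscle in development.

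Levels are log2 spot signals minus the 75th percentile of the same array, so a level of 0 is that percentile and a difference of 1 is 2-fold. That percentile was a signal of 319 in WT control, 371 in WT with LDL, 389 in L2AKO control and 434 in L2AKO with LDL. Between 47.2% and 52.0% of probes were well above background by the scanner software, and the lowest such level lay between -5.08 and -4.23. That lowest level is used below as the detection limit of an array, but it is not a strict one. In WT control it was -4.23, yet the apical gene Pard6b, at -3.98, was not well above background. Each "at least" fold below is therefore approximate and could be smaller. The array of L2AKO with LDL was on a slide apart from the other 3, and 7 of 8 spike-in controls on it were outside the range of the others, by -1.19 to 0.63 from their mean. Slide and genotype therefore cannot be told apart with LDL, nor slide and LDL in L2AKO. Repeated spots of a probe on 1 array had a median SD of at most 0.054, which gives 0.076 for a difference of 2 spots and covers technical spread within an array only. One probe of Lamp2, the targeted gene, had levels of 3.68, 3.74, 2.30 and 2.41 in WT control, WT LDL, L2AKO control and L2AKO LDL, and the other had 6.29, 6.38, 6.33 and 6.09. The sources used here do not say which probe lies in the deleted part.

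The genotypes differed widely in these genes, but not in 1 direction. Without LDL, on 1 slide, 5 of the 8 members measured on both arrays were at least 2-fold lower in L2AKO (Perp, Cdh1, Msln, Krt18 and Krt19) and 2 were at least 2-fold higher (Lrrn4 and Upk3b). Of all 12593 genes measured there, 8.21% were at least 2-fold lower and 7.56% at least 2-fold higher. These members were picked with such values in view, so their share shows nothing beyond that choice. With LDL the same 5 were lower and the same 2 higher among 9 members measured, where 10.4% of 12934 genes were lower and 8.3% higher. The median difference of the members was -1.76 without LDL and -1.27 with LDL, against -0.01 and -0.05 over all genes. Fewer cells of a type and less RNA per cell cannot be told apart in such samples.

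**Figure D1:**
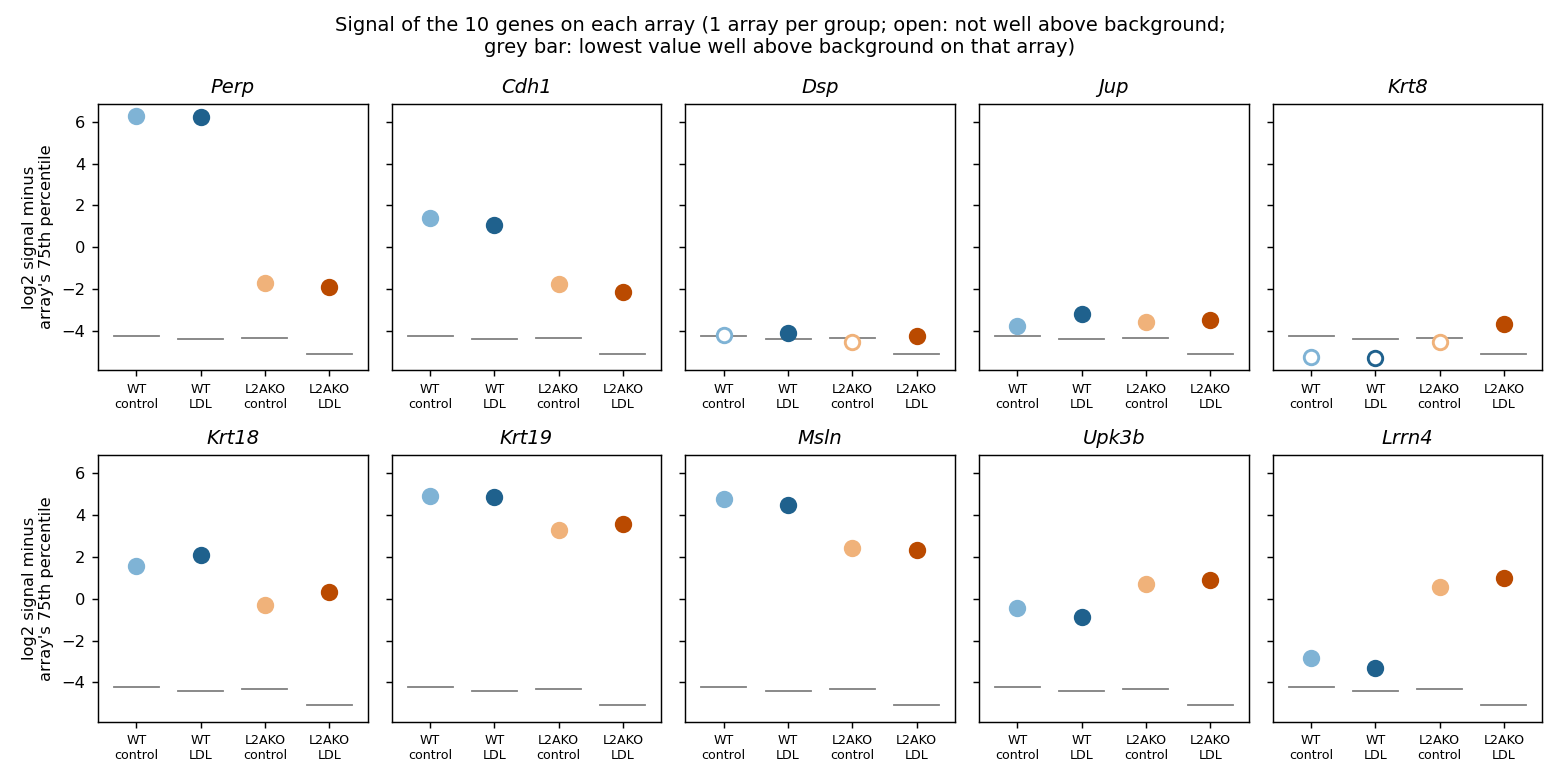
Level of each of the 10 genes (log2 signal minus the array's 75th percentile, y axis) on the 4 arrays (x axis, 1 array per group). Filled points were well above background, open points were not, and the grey bar is the lowest level well above background on that array; Perp stands at 6.28 and 6.22 in WT and at -1.72 and -1.87 in L2AKO.

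Perp encodes a small membrane protein of desmosomes that is a target of p53 and p63. Its probe read 6.28 in WT control, 6.22 in WT with LDL, -1.72 in L2AKO control and -1.87 in L2AKO with LDL. In linear signal these levels were 24800, 27692, 119 and 118. The 2 WT arrays were high and the 2 L2AKO arrays low, with no overlap, and all 4 spots were well above background. The share of all genes whose WT and L2AKO arrays separate in this way was not counted. Lack of overlap, here and for the members below, is therefore no particular mark of these genes. Perp was 256-fold lower in L2AKO without LDL (log2 difference -8.00) and 274-fold lower with LDL (-8.10). Its difference was the most negative of 12593 genes measured without LDL and of 12934 measured with LDL. That ranking leaves out genes well above background in WT only, for which a difference can be given only as a bound. Cdh13 is such a gene, with bounds of -7.31 (no LDL) and -7.93 (LDL). Whether Cdh13 differed more than Perp therefore cannot be decided. After a normexp background correction with quantile normalisation the differences of Perp were -7.18 and -7.27. A single probe, spotted once, stands behind these values.

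Cdh1 is E-cadherin, the adherens junction cadherin of epithelia. Its probe was printed 10 times on each array and gave means of 1.38 in WT control (SD 0.056 over 10 spots), 1.09 in WT with LDL (SD 0.039), -1.76 in L2AKO control (SD 0.108) and -2.15 in L2AKO with LDL (SD 0.076 over 9 spots, 1 being marked as an outlier). The lowest WT spot, at 1.03, lay well over the highest L2AKO spot, at -1.54, so the arrays of the genotypes did not overlap in any spot. Cdh1 was 8.82-fold lower in L2AKO without LDL (log2 difference -3.14) and 9.45-fold lower with LDL (-3.24). With normexp and quantile normalisation these were -2.54 and -2.55. Spots of 1 array share 1 RNA sample, so their SD is not an error of the genotype difference.

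**Figure D2:**
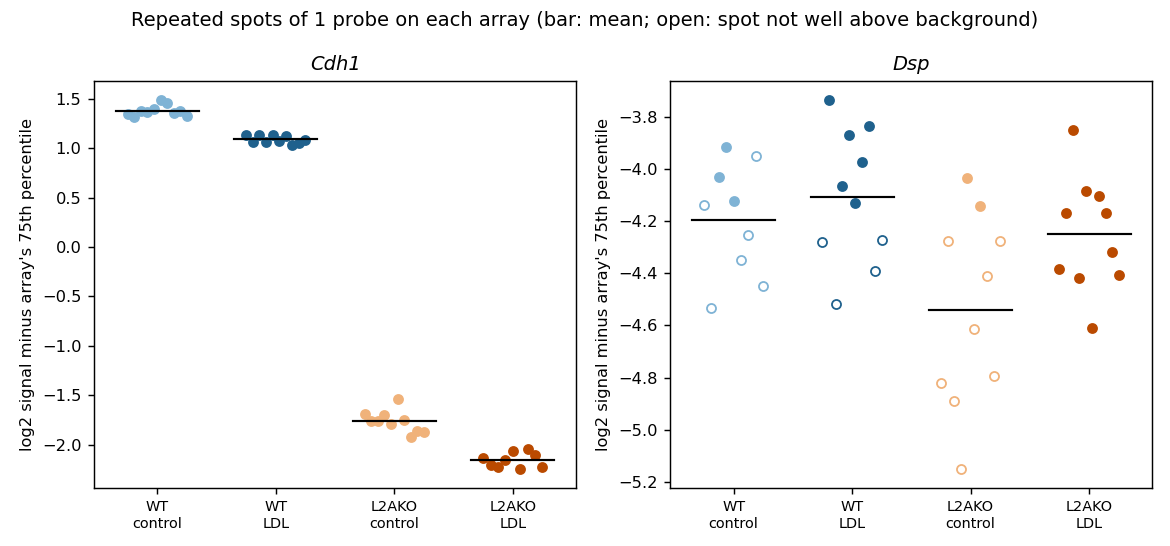
Levels of the repeated spots of the Cdh1 and Dsp probes (log2 signal minus the array's 75th percentile, y axis) on the 4 arrays (x axis), with the mean as a bar and open points for spots not well above background. Cdh1 spots of WT lie between 1.03 and 1.49 and those of L2AKO between -2.25 and -1.54, whereas the Dsp spots of all arrays overlap and lie between -5.15 and -3.73.

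Dsp, desmoplakin, links desmosomes to keratin filaments, and it was near background throughout. Its brighter probe averaged -4.19 in WT control, -4.11 in WT with LDL, -4.54 in L2AKO control and -4.25 in L2AKO with LDL, over 9 or 10 spots. The number of spots well above background was 3 of 9, 6 of 10, 2 of 10 and 10 of 10 in that order. The spots of all 4 arrays overlapped, and their SD within an array ran from 0.217 to 0.367. Where most spots of both arrays were measured, with LDL, the genotypes differed by -0.14, which turns to 0.06 after quantile normalisation. That difference is between means of 10 spots, whereas the SD describes single spots, so the SD is not its error. On no array was the second Dsp probe well above background.

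Jup, plakoglobin, sits in desmosomes and adherens junctions alike. It was dim, at -3.78 in WT control, -3.21 in WT with LDL, -3.58 in L2AKO control and -3.48 in L2AKO with LDL. The genotypes overlapped, with both L2AKO levels between the 2 WT levels. L2AKO minus WT was 0.19 without LDL and -0.27 with LDL, which is of the size of the spot SD of the similarly dim Dsp probe.

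Keratins of simple epithelia split by their level. Krt18, a type I keratin, read 1.58 in WT control, 2.07 in WT with LDL, -0.32 in L2AKO control and 0.31 in L2AKO with LDL. Both WT levels were above both L2AKO levels, and in each genotype the LDL array was the higher one. The genotype difference was -1.90 without LDL (3.73-fold lower in L2AKO) and -1.76 with LDL (3.38-fold lower). Krt8, the type II partner of Krt18, was not well above background in WT control (-5.23), WT with LDL (-5.30) or L2AKO control (-4.50), and read -3.64 in L2AKO with LDL. Set against the detection limit of the dim array, Krt8 with LDL was at least 1.69-fold higher in L2AKO than in WT, and L2AKO cells with LDL were at least 1.61-fold above L2AKO control. With LDL, across slides, Krt8 was thus higher in L2AKO than in WT, and Krt18 was lower. The Krt8 value rests on 1 dim spot of the array on its own slide. Repeated spots of the similarly dim Dsp probe had an SD of 0.217 to 0.367 within an array, so the direction of Krt8 is uncertain.

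Krt19, a type I keratin of simple epithelia and mesothelium, read 4.88 in WT control, 4.85 in WT with LDL, 3.26 in L2AKO control and 3.58 in L2AKO with LDL. The WT arrays were the high ones again. Krt19 was 3.08-fold lower in L2AKO without LDL (-1.62) and 2.40-fold lower with LDL (-1.27).

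The sequence ahead of the start of Krt8 and Krt18 is shown because the genes encode partners. Krt18 was well above background on all 4 arrays and Krt8 on 1 only. RefSeq windows on GRCm38.p6 were present for 6 of the 10 members (Dsp, Jup, Krt8, Krt18, Upk3b and Lrrn4), and those of Perp, Cdh1, Krt19 and Msln are not shown. The array files name the older build mm9, and no array value was assigned by position. Each window holds the 250 bases before a transcript start, 5′ to 3′ on the gene's strand, in lower case, with capitals for any match on either strand to 5 motifs: the E-box CACCTG, which repressors of the Snai and Zeb families bind, the GC box GGGCGG, the AP-1 site TGANTCA, the TEAD site CATTCC and the TATA box TATAAA. The Krt8 window is chr15:102004343-102004592 on the minus strand and the Krt18 window is chr15:102027966-102028215 on the plus strand.
Krt8: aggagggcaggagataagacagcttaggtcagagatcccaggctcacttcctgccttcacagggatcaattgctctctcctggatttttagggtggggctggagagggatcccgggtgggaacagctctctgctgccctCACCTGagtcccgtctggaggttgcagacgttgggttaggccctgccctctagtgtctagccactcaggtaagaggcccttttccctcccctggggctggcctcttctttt
Krt18: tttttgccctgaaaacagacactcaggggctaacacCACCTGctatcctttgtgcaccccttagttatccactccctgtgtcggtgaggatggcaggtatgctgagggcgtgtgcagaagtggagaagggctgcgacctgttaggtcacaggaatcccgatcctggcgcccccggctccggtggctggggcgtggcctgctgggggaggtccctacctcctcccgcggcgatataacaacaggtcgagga
Each window held 1 match, a CACCTG on the gene's strand, starting 111 bases ahead of the start in Krt8 and 214 bases ahead in Krt18. Of 32851 such windows of all genes, 17.2% held this E-box on either strand. No match overlapped another. The Dsp window held 4 GC boxes and the Jup window 2, and 32.7% of all windows held at least 1. How many windows held as many was not counted. The Dsp window was 72.4% G or C and the Jup window 62.0%, against a median of 52.4% over all windows. A match is a run of letters and says nothing about binding.

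Msln, mesothelin, is a surface protein of mesothelium. It read 4.74 in WT control, 4.48 in WT with LDL, 2.43 in L2AKO control and 2.34 in L2AKO with LDL. WT arrays were high and L2AKO arrays lower, with no overlap. Msln was 4.97-fold lower in L2AKO without LDL (log2 difference -2.31) and 4.43-fold lower with LDL (-2.15), and it was still well above background there.

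Upk3b, a uroplakin made by urothelium and mesothelium, went the other way, with -0.45 in WT control, -0.90 in WT with LDL, 0.72 in L2AKO control and 0.90 in L2AKO with LDL. Both L2AKO arrays were above both WT arrays. Upk3b was 2.25-fold higher in L2AKO without LDL (1.17) and 3.49-fold higher with LDL (1.80). After normexp and quantile normalisation the difference without LDL was 0.98, just under 2-fold.

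Lrrn4, a leucine-rich repeat membrane protein used as a mesothelial marker, differed most among the members that were higher. It read -2.83 in WT control, -3.33 in WT with LDL, 0.58 in L2AKO control and 0.98 in L2AKO with LDL. The groups did not overlap. Lrrn4 was 10.6-fold higher in L2AKO without LDL (3.40) and 19.8-fold higher with LDL (4.31), with values of 2.29 and 2.93 after normexp and quantile normalisation, in which 50 was added to every signal. Among the genes measured it ranked 56 from the top of 12593 without LDL and 21 from the top of 12934 with LDL.

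Upk3b and Lrrn4 were the members with higher levels in L2AKO, so their windows are set beside each other, with the same capitals as above. The Upk3b window is chr5:136038246-136038495 on the plus strand. The Lrrn4 window is chr2:132880863-132881112 on the minus strand, ahead of a transcript start inside the annotated gene.
Upk3b: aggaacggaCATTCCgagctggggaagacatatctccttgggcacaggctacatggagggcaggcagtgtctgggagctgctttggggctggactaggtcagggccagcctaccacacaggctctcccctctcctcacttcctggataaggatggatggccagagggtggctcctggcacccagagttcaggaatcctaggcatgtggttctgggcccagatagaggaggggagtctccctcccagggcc
Lrrn4: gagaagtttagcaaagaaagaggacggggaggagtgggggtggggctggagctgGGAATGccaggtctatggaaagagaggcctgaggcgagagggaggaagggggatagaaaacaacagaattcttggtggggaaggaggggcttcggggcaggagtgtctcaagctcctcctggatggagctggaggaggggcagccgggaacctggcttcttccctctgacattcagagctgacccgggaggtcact
Both held 1 match, to the TEAD motif CATTCC, on the gene's strand starting 241 bases ahead of the start in Upk3b and on the opposite strand, read as GGAATG, starting 196 bases ahead in Lrrn4. Of all 32851 windows, 12.6% held that motif.

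**Figure D3:**
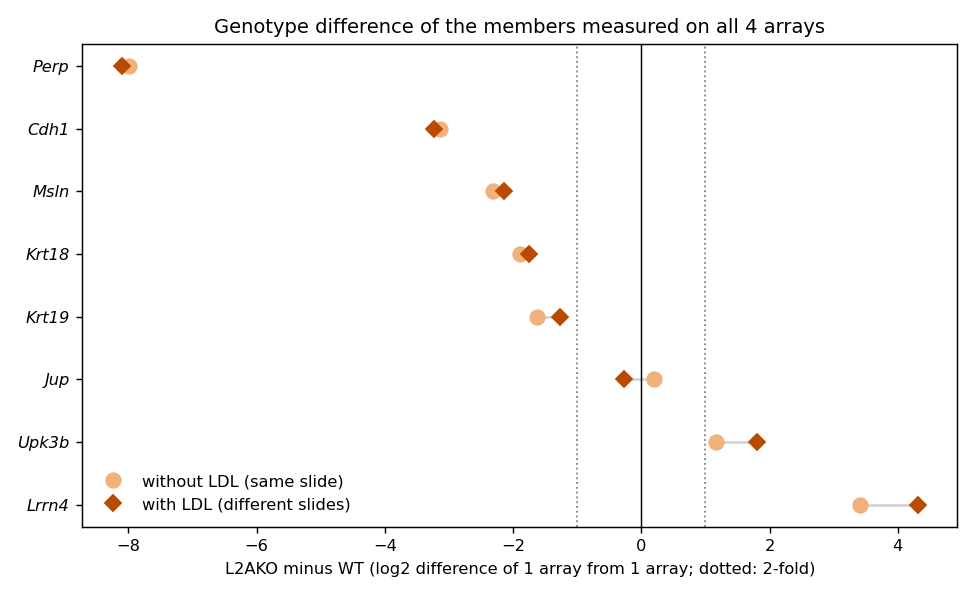
Difference of L2AKO from WT (x axis, log2, 1 array from 1 array) for the 8 members measured on all 4 arrays (y axis), without LDL as circles and with LDL as diamonds, with dotted lines at 2-fold. The differences run from -8.00 for Perp to 3.40 for Lrrn4 without LDL, and only Jup changes side, from 0.19 to -0.27.

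Of the 8 members measured on all 4 arrays, all but Jup differed less with LDL than between genotypes. No member of 8 measured was 2-fold higher or lower with LDL in WT, where 0.247% of 12977 genes were higher and 1.02% lower (1.27% in all). In L2AKO, across slides, it was again 0 of 8, with 0.93% of 13008 genes higher and 1.33% lower (2.26% in all). The member medians were -0.16 in WT and 0.15 in L2AKO, against -0.05 and -0.08 over all genes. Krt18 was higher with LDL in both lines, by 0.50 in WT and 0.64 in L2AKO. Cdh1 was lower in both, with differences of -0.29 and -0.39, and the WT value was -0.17 in the authors' deposited values. In WT the 10 Cdh1 spots without LDL (1.31 to 1.49) did not overlap the 10 spots with LDL (1.03 to 1.14). Spots of 1 array share 1 RNA sample, however, so this is no measure of an LDL effect. Spike-in controls differed by up to 0.50 among the 3 arrays of the first slide, more than this Cdh1 difference. Jup differed by 0.57 with LDL in WT and by 0.11 in L2AKO. Perp differed by -0.06 and -0.16, and its WT value turns to 0.04 in the authors' deposited values. Krt19 differed by -0.03 in WT and 0.33 in L2AKO, and Msln by -0.26 and -0.10.

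The LDL and genotype comparisons share arrays, so an array that reads high enters more than 1 of them. Taken as the L2AKO response minus the WT response, the members ran from -0.47 for Jup to 0.91 for Lrrn4, with 0.63 for Upk3b, 0.36 for Krt19, 0.17 for Msln, 0.14 for Krt18 and -0.10 for Cdh1 and for Perp. The L2AKO LDL array on its own slide enters each of these values.

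Mesothelial markers of a short list, written with earlier results of these arrays known, were all present where they had a named probe. Their presence is thus no independent sign of mesothelial cells. Calb2, a standard mesothelial marker kept in the wider list below, passed background on no array. Of 10 listed markers, 3 of them members, 9 had a probe with a gene name, and these 9 were well above background on all 4 arrays, with a summed level from 5.05 to 5.79. Wt1, the transcription factor that marks mesothelium, read -0.10, -0.15, -1.03 and -0.69 in WT control, WT LDL, L2AKO control and L2AKO LDL, which is 1.91-fold lower in L2AKO without LDL. Upk1b, a uroplakin, was 3.82-fold lower in L2AKO without LDL (log2 difference -1.94). Gpm6a (0.12), Bnc1 (0.18), Rspo1 (0.17) and Nkain4 (-0.49) lay under 2-fold. Without LDL this list therefore had 2 members higher, 2 lower and 5 within 2-fold, with a median of 0.12, and 3 of the 4 past 2-fold are among the 10 genes described here. Rspo1, which encodes a Wnt signalling ligand, was lower with LDL in both lines, with differences of -1.31 in WT and, across slides, -2.24 in L2AKO. In a wider list 2 more genes were at least 2-fold lower with LDL in both lines, the protease inhibitor Slpi (-2.23 and -2.30) and the complement component C3 (-1.14 and -1.15).

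**Figure D4:**
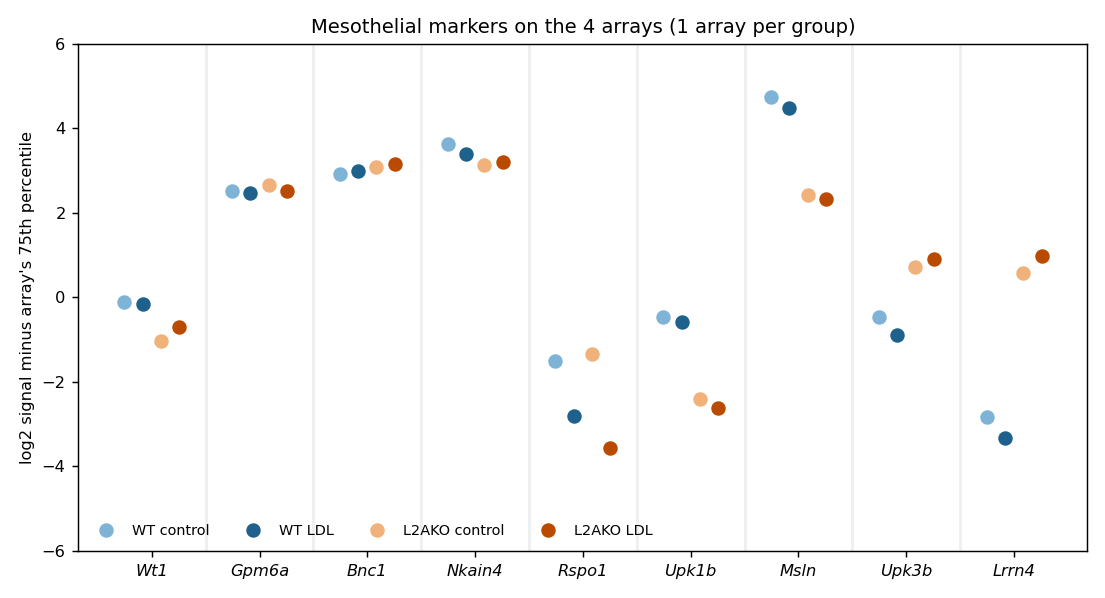
Levels of the 9 mesothelial markers with a named probe (x axis) on each array (y axis, log2 signal minus the array's 75th percentile; 1 point per array, colours for the groups). Gpm6a, Bnc1 and Nkain4 lie close together on all arrays, Msln and Upk1b are lower in L2AKO and Upk3b and Lrrn4 higher.

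That wider list, of 25 mesothelial and serosal genes, takes in the markers above that are not members, and Calb2 (calretinin, a standard mesothelial marker), Tcf21 and Fgf1 passed background on none of the arrays. The list had 19 genes measured without LDL, with 2 higher and 4 lower in L2AKO (median 0.05). The lower ones were Upk1b and 3 others. Aldh1a2, which makes retinoic acid, differed by -3.65 and the IGF binding protein Igfbp2 by -3.52, with -3.38 on its other probe. Podxl, a sialomucin, differed by -1.48. Higher were Igfbp6 (1.41) and Sulf1 (1.29). By the approximate detection limits, Igfbp5 was at least 9.71-fold lower in L2AKO, the transcription factor Gata4 at least 4.14-fold lower and Cd200 at least 4.37-fold higher.

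Desmosomes are built on their own cadherins, and none of the 7 tested (Dsc1, Dsc2, Dsc3, Dsg1a, Dsg2, Dsg3 and Dsg4) passed background on any array. Of the 15 other desmosome genes, 6 were measured on both arrays without LDL, of which 1 was lower and none higher (median -0.41). That was Evpl, envoplakin, at -1.25 without LDL and -0.97 with LDL. Pkp1, plakophilin 1, read 1.63 and 1.17 in WT control and WT LDL and was not well above background in L2AKO, at -6.32 and -7.16. Without LDL, Pkp1 was thus lower in L2AKO by at least 62.0-fold, and with LDL by at least 76.0-fold. The other plakophilins differed less, with Pkp2 at -0.95, Pkp3 at -0.35 and Pkp4 at -0.48 without LDL, and periplakin, Ppl, stood at 0.73.

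Other keratins were mostly dim. Of 15 listed, 8 were on no array well above background, Krt5 of basal epithelium among them, and of 6 measured without LDL 1 was lower in L2AKO (median -0.13). That was Krt13, whose brighter probe gave -1.10 and whose other probe 1.71, so its direction depends on the probe.

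Cadherins differed in both directions. Of 16 listed cadherin, catenin and nectin genes, 11 were measured without LDL, with 2 higher and 2 lower (median 0.15). N-cadherin, Cdh2, read 4.99 and 4.80 in WT and 7.04 and 6.82 in L2AKO, which is 4.16-fold higher in L2AKO without LDL (2.06), with 2.13 on its other probe. P-cadherin, Cdh3, was 6.56-fold higher (2.71). Cdh13, T-cadherin, read 2.99 and 2.85 in WT and was not well above background in L2AKO, and without LDL was lower there by at least 159-fold. Cdh4, R-cadherin, was dim, at -2.66 in WT LDL and -2.69 in L2AKO control. It was not well above background in WT control (-5.26) or L2AKO LDL (-5.97). By detection limits it was at least 2.92-fold higher in L2AKO without LDL and, across slides, at least 5.35-fold lower with LDL. It passed background on only 1 of the WT arrays, and none of its other probes was measured in either comparison, so its direction is not settled. Lower were also the catenin-like Ctnnal1 (-1.48) and afadin, Afdn (-1.28).

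Of 22 tight junction and apical genes, 11 passed background on no array, occludin (Ocln) among them, and of 10 measured without LDL 2 were higher and 3 lower (median -0.35). Among the lower ones, cingulin (Cgn) differed by -1.31 and ezrin (Ezr) by -1.01, against the claudin Cldn7 at 1.28 and the junction molecule F11r at 1.11.

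Of 24 epithelial identity genes, 9 were well above background on all arrays and 10 on none. The transcription factors Ovol2 (4.78 and 4.85 in WT and L2AKO control) and Klf4 (4.92 and 5.00) and the splicing factor Esrp2 (1.25 and 1.27) were above the 75th percentile in both genotypes, with differences of 0.07, 0.08 and 0.02. Of the 9 measured without LDL, Cdh1 included, 2 were lower and none higher (median -0.25). The other was the transcription factor Tfap2a (-2.01). Epcam, an epithelial adhesion molecule, was above background in WT control only, at -3.13, and was at least 2.30-fold lower in L2AKO control. The protease St14 was at least 3.72-fold lower and the transcription factor Grhl3 at least 2.17-fold lower in L2AKO control cells. In a separate list of 12 epithelial markers 5 were measured on all arrays, with Krt5, Cldn3, Cldn4 and Rab25 on none. Cdh1 was lower and Cldn7 higher in L2AKO without LDL. The summed level was 2.57, 2.38, 1.88 and 1.71 in WT control, WT LDL, L2AKO control and L2AKO LDL. That sum includes the member Cdh1, the brightest of the list in WT control at 1.38 and at -1.76 in L2AKO control. Esrp2, the next brightest, did not fall, so the sum does not describe epithelial markers as a whole.

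Regulators and products of the epithelial to mesenchymal transition were nearly all measured, 16 of 17 on every array, and 5 were higher and 2 lower in L2AKO without LDL (median 0.42). Known repressors of Cdh1 lay on both sides of 2-fold. Snai1, a zinc finger factor, was 1.44 higher and Twist1, a basic helix-loop-helix factor, was 1.76 higher, whereas Snai2 (0.64), Zeb1 (0.15) and Zeb2 (0.72) were under 2-fold. Foxc2, a forkhead factor, was 2.91 higher. Among the lower ones was Lamb3, a chain of an epithelial laminin (-3.95). Vimentin, Vim, read 7.71 and 7.67 in the control arrays, a difference of -0.04.

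Of 15 p53 family members and targets, all 15 were measured without LDL, with 3 lower, none higher and a median of -0.54. Of the family that regulates Perp, Trp53 differed by -0.12, Trp63 by -0.51 (-1.84 on its other measured probe) and Trp73 by -0.01. The 3 lower without LDL were the apoptosis gene Pmaip1 (-2.37), the stress cytokine Gdf15 (2.84-fold lower) and Mdm2 (-1.02), which restrains p53. Just under 2-fold lower were Bax (6.78 in WT control, 5.78 in L2AKO control), Fas (5.03 and 4.04) and Cdkn1a (4.73 and 3.76). Zmat3 (3.61 and 4.16) was higher by less than 2-fold. With LDL, 4 of the 15 were lower and none higher (median -0.47). Intermediate filament genes other than keratins had 1 of 7 lower and none higher (median -0.20). That was nestin, Nes (-4.19), and by its detection limit synemin, Synm, was at least 4.04-fold lower.

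**Figure D5:**
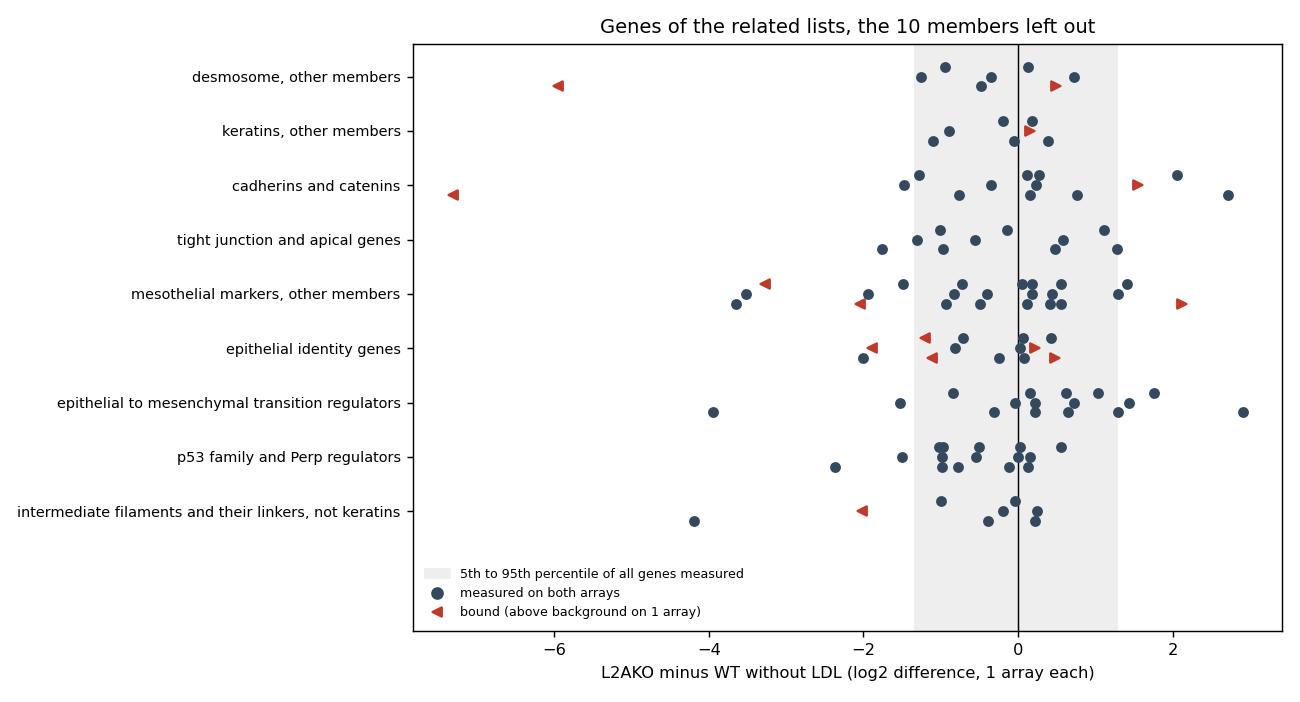
Difference of L2AKO from WT without LDL (x axis, log2, 1 array from 1 array) for genes of the 9 related lists (y axis) with the 10 members left out. Points were measured on both arrays, triangles are bounds for genes above background on 1 array, and the grey band spans the 5th to 95th percentile of all genes, -1.33 to 1.28; Pkp1 and Cdh13 are bounds at -5.95 and -7.31.

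Together the 9 related lists held 156 genes besides the members, of which 97 were measured without LDL, with 11 higher (11.3%) and 18 lower (18.6%) in L2AKO and a median of -0.06, beside 7.56% and 8.21% of all genes. With LDL, 100 were measured, 14 higher (14%) and 21 lower (21%), beside 8.3% and 10.4% of all genes. The lists were chosen with earlier results known. Between LDL and control arrays, 0 were higher and 3 lower of 104 in WT, and 2 higher and 4 lower of 101 in L2AKO, across slides.

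Markers of the labelled cell type were partly present. Counts of higher and lower genes that follow are for L2AKO against WT without LDL, unless stated. Of 10 contractile smooth muscle genes 6 were well above background on all arrays, while Myh11, Myocd, Lmod1 and Des were on none. Acta2, smooth muscle actin, read 7.39 and 7.21 in WT and 6.63 and 6.55 in L2AKO. Tagln (1.27) and Cnn1 (1.11) were higher in L2AKO without LDL and Actg2 was lower (-1.73), beside a summed level of 7.25 to 7.74. Adventitial fibroblast markers, 9 of 10 on all arrays, had 3 higher and 2 lower (4 lower with LDL), and their summed level was 8.60 to 9.08. Of 10 endothelial markers 4 were measured on all arrays, with Cdh5, Tek, Emcn, Cldn5 and Tie1 on none, and none of 4 past 2-fold without LDL. With LDL, across slides, 3 of 4 (Vwf, Egfl7 and Esam) were higher in L2AKO (median 1.10), and the summed levels were 3.21 and 2.82 in WT and 3.50 and 3.51 in L2AKO. Of 10 macrophage markers 4 were on all arrays, with Ptprc and Adgre1 on none, 1 higher (Cd68, 1.85) and summed levels of 5.03 to 5.68. Adipocyte markers had 2 of 7 on all arrays, with Adipoq, Plin1, Cidec and Lep on none. Both were higher (Fabp4 1.87, Pparg 1.86), at summed levels of 2.24 to 4.14. Pericyte markers had 5 of 7, of which 2 were lower, at 6.56 to 6.75, and cardiac muscle markers had 3 of 7, none past 2-fold (1 lower with LDL), at 0.25 to 0.48. The part of any of these cells in the differences of the 10 genes was not tested.

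Genes whose pattern over the 4 arrays was nearest to that of a member were sought among 12491 genes well above background on all of them, by Euclidean distance after centring each gene on its mean. For Perp they were Cck (distance 1.27 log2 units), Slc24a3 (1.80) and Fst (1.93), with differences of -6.22, -6.21 and -6.08 without LDL, none as large as that of Perp. For Lrrn4 they were Spink4 (0.24), Prss12 (0.25) and Hunk (0.32), at 3.48, 3.21 and 3.56. A distance over 4 points, 1 per group, describes these arrays only.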

How the data were processed

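Per the file headers, the authors' deposited scanner files hold spot intensity on a linear scale, made with Agilent Feature Extraction 10.7.3.1, with the processed intensity already background-subtracted. The authors' deposited value table holds a linear signal that follows the median spot intensity in rank (Spearman at least 0.9997 per array). Its columns have medians of 57.6, 57.6, 57.5 and 57.4. Per the submitters' processing notes, RMA and oligo were used, and the sources used here give no further detail of the scaling.

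Control spots and outlier spots were left out, log2 values of repeated spots were averaged, and each array's 75th percentile was subtracted. A probe counted as well above background if over 0.5 of its spots did. RefSeq accessions named 28330 of 55679 probes through GRCm38.p6, and a gene took its brightest probe. A gene was measured if above background on both arrays, and called at 2-fold. With background on 1 array, an approximate bound against the lowest value above background is given. The members, 9 related and 9 marker lists, and the naming rule were chosen with earlier results of these data known. The rule allowed all members, list genes past 2-fold without LDL (up to 4 per direction), defining genes of a list, and 3 nearest patterns for Perp and Lrrn4. Of the list genes, 1 had no named probe, and some are counted but not reported here by name. Rspo1, Slpi and C3 with LDL, the endothelial genes with LDL, and Krt5, Ocln and other genes below background or under 2-fold, were named after their values were seen. The steps were tested on simulated data. Python 3.11.15, numpy 2.4.6, pandas 2.3.3, matplotlib 3.10.9, R 4.3.3 and limma 3.58.1 were used.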

Additional observations from a re-analysis of the deposited data

Results flagged for a closer look

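Some members differed in opposite directions in groups compared the same way. With 1 array per group, these differences between groups were not tested.

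Upk3b differed with LDL by -0.45 in WT and by 0.19 in L2AKO. Lrrn4 differed with LDL by -0.51 in WT and by 0.40 in L2AKO. Jup differed between L2AKO and WT by 0.19 without LDL and by -0.27 with LDL. Its probe is dim and spotted once, and the repeated spots of the similarly dim Dsp probe had an SD of 0.217 to 0.367 within an array, so these values are of the size of that spread. In each case the L2AKO LDL array, on its own slide, gives 1 of the values.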

How the results depend on the processing

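Alternatives were 3 other scalings, normexp with an offset of 50, the authors' deposited values, a looser filter on dim genes, the mean of a gene's probes, and 1.5-fold for a call. Leaving out a replicate and a slide block could not be run, since each group had 1 array. No paired analysis was possible because each group holds 1 array and the labels give no replicate numbers. The counts of members lower in L2AKO stayed within 1.5 times under all of these, and that of members higher without LDL went from 2 to 1 after normexp, Upk3b being at 0.98. At 1.5-fold, 1 member was higher with LDL in L2AKO. At 1.5-fold the related genes lower in L2AKO numbered 35 with LDL and 33 without, those lower with LDL 8 in L2AKO and 6 in WT, and those higher with LDL 1 in WT. Related genes higher with LDL in L2AKO went from 2 to 1 in the authors' values and with the mean of probes, and to 0 after normexp. Related genes higher with LDL in WT went from 0 to 1 with a percentile over detected probes and with the looser filter, and those lower from 3 to 1 in the authors' values. Krt13 between the genotypes without LDL turned from -1.10 to 0.30 with the mean of its probes. Median scaling put the median of all genes at 0.15 for L2AKO minus WT with LDL, against -0.05, and made 1482 genes 2-fold higher and 986 lower, against 1073 and 1341. Dim genes, such as Jup, Dsp and Krt8, lie near background, which limits their values.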
